A study of Homo sapiens with 12 samples.

Results

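EXO1, XRCC2, RAD54B, RAD51AP1 and BARD1 are 5 genes of homologous recombination and mismatch repair. They were followed in LNCaP, an androgen-responsive human prostate cancer cell line, under a change of serum and under taxane treatment. The 5 genes were picked by symbol out of 14812 genes with a name on the array, of which 11105 were bright enough to be tested. Each of the 5 was read by 1 transcript cluster, a set of probes over a transcript, and lay above the median of all values (22.3) on all 12 arrays. The choice of genes used earlier results of these data. EXO1 and XRCC2 in particular were chosen because they were lower with the taxanes, so their taxane differences are given as a description, without a test.

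All cells carried the control plasmid MSCV-LMP, and RNA was measured on Affymetrix Human Gene 2.0 ST arrays. The 12 arrays formed 6 groups of 2: ethanol vehicle, 1 nM cabazitaxel or 1 nM docetaxel for 16 h, each in charcoal dextran treated serum (charcoal serum below) or in full serum. Charcoal treatment depletes serum of steroid hormones and other small lipophilic molecules, and both taxanes bind and stabilise microtubules. LNCaP is a line in culture, so the arrays hold no tissue, and no group without the plasmid was used here. Whether replicates 1 and 2 came from separate cultures is not stated, so a p-value here covers only how far these samples spread, which may be technical.

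Homologous recombination repairs DNA breaks and stalled replication forks by copying from the sister chromatid. A broken end is first resected by nucleases, and the bared strand then invades the intact duplex. EXO1 is a nuclease that resects ends and also removes the mismatched strand in mismatch repair. XRCC2 helps prepare the bared strand for that step, RAD51AP1 and RAD54B stimulate strand invasion, and BARD1 is the partner of BRCA1 in a ubiquitin ligase that acts at breaks. Much of this machinery is used in S phase and G2, and many of its genes are transcribed with the cell cycle through E2F factors.

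RefSeq promoter windows (GRCh38.p14, 250 bases before to 50 after each annotated start) were matched for 4 of the 5 genes, EXO1, XRCC2, RAD51AP1 and BARD1. They are shown because the transcript levels below fall into different patterns across the groups. The windows were searched on both strands for 4 short forms of the E2F site. The first was TTCCCGC, and its variants were written as TTGGCGC, then in another form as TTCGCGC, and also in the form TTGCCGC. Each of the 4 genes held such a match in a window, near the start. Counted by window and not by gene, 13.0% of 35116 windows of the same length held a match at any position. The stretches of 30 bases around the matches follow, on the gene's strand, with the match in capitals.
EXO1: aaggtcagcctTTCGCGCgctgtgtaggca
XRCC2: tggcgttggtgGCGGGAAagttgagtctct
RAD51AP1: tctggttttggGCGGGAAttgaaaccgccg
BARD1: ccgtcccagacGCGGGAAgagcttggccgg
The stretches lie at chr1:241848198-241848227 on the plus strand for EXO1, chr7:152676102-152676131 on the minus strand for XRCC2, chr12:4538858-4538887 on the plus strand for RAD51AP1 and chr2:214809661-214809690 on the minus strand for BARD1. Counted from the annotated start as base 1, the matches began at base 6 in EXO1, 22 in XRCC2 and 5 in BARD1, and at base -21 in RAD51AP1. In XRCC2, RAD51AP1 and BARD1 the capitals are the reverse complement of TTCCCGC. EXO1 has another annotated start, and no match to any searched motif was in its window. A match is a description of letters and not evidence of a bound site.

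The 250 bases before the starts are printed with GC boxes, GGGCGG or its reverse complement CCGCCC, in capitals. This motif is the core of sites read by Sp1-type factors and was in 45.0% of all windows.
EXO1: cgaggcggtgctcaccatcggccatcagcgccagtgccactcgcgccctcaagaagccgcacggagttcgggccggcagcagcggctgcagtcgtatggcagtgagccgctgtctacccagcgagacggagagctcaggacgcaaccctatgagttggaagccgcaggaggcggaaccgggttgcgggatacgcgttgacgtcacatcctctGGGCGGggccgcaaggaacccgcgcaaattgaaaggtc
XRCC2: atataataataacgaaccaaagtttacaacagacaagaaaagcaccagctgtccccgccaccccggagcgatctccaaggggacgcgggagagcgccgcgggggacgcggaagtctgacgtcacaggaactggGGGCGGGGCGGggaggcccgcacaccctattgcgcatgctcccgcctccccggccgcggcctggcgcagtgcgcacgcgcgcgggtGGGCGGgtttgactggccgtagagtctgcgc
RAD51AP1: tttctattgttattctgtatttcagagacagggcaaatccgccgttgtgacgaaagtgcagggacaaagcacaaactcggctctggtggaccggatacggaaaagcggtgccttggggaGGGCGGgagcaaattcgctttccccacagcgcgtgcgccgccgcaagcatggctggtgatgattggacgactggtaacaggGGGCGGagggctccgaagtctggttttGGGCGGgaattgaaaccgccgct
BARD1: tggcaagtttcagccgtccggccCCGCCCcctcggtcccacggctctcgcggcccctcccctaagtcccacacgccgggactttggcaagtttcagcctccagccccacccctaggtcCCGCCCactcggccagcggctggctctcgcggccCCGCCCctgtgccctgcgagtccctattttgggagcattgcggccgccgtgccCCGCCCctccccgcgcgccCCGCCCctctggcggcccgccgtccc
The windows are chr1:241847954-241848203 for EXO1, chr7:152676142-152676391 for XRCC2, chr12:4538640-4538889 for RAD51AP1 and chr2:214809684-214809933 for BARD1. EXO1 held 1 GC box, XRCC2 and RAD51AP1 3 each, and BARD1 5. Of the 3 in XRCC2, 2 overlap by a letter, and the box of RAD51AP1 nearest the start overlaps its E2F match. RAD51AP1 also held CCAAT, at base -70 on the minus strand, a motif found in 34.6% of windows. EXO1 held TGTTCT, a hexamer of the androgen receptor's binding site, at base 34, as 14.8% of windows did. The cell cycle element searched as TTTGAA, or in another form as TTCGAA, in 16.4% of windows, was in none of these windows.

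**Figure D1:**
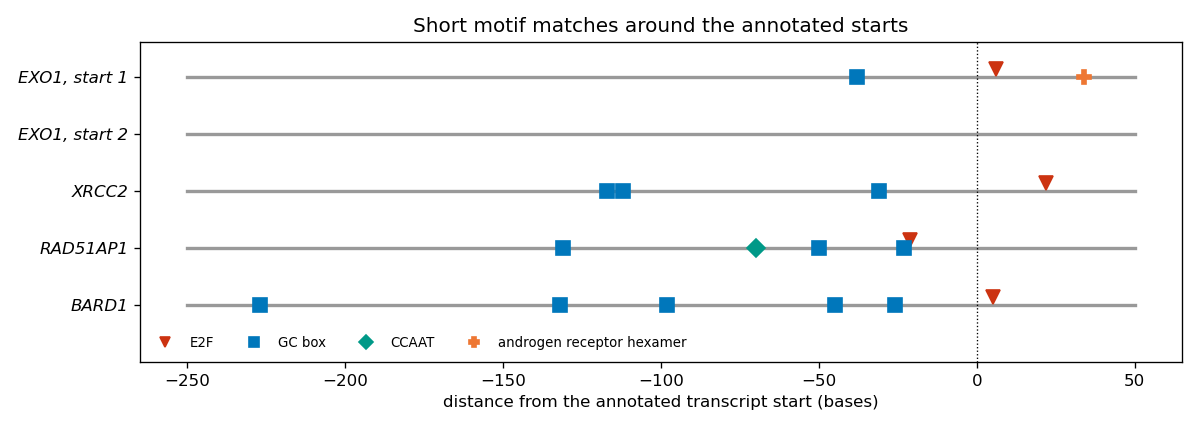
Positions of short motif matches in the promoter windows of 4 repair genes, in bases from the annotated start (dotted line). E2F matches (triangles) lie within 22 bases of the start in each gene, and GC boxes (squares) number 1 in EXO1 and 5 in BARD1.

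The cell line was checked on markers first. The luminal prostate markers KLK2 (intensity 92.0 to 364), KLK3 (478 to 1466), KLK4 (241 to 355), FOLH1 (763 to 1421), HOXB13 (86.0 to 120), KRT8 (42.7 to 64.4) and KRT18 (222 to 288) were above the median value on all arrays. They are the 7 of 12 listed luminal markers that were named. The basal keratins KRT5, KRT14 and KRT15 lay between 19.5 and 26.1, and the fibroblast genes DCN and LUM between 18.1 and 21.8, close to the floor of the array values. The other named fibroblast genes were brighter, FN1 at 393 to 689, VIM at 28.9 to 39.1 and THY1 at 22.4 to 28.2, and the immune marker CD68 read 34.4 to 40.4. Across genes, r between the replicate arrays ran from 0.9863 to 0.9922. Intensities are linear values above a floor, so differences of dim genes are compressed, and the level of a probe set is not compared with that of another.

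RAD54B and BARD1 differed between the sera, in opposite directions. RAD54B, the strand invasion motor, was 1.48-fold higher in full serum over the mean of the 3 treatments, and BARD1 was lower at 0.752 of its charcoal level. Both passed the test over all 11105 genes. EXO1 and XRCC2 were a little higher in full serum without passing, and the interval of RAD51AP1 over the 3 treatments held 0.

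RAD54B (transcript cluster 17079220) read 64.1 and 79.5 on the vehicle arrays in charcoal serum, 71.0 and 64.8 with cabazitaxel, and 70.5 and 71.2 with docetaxel. In full serum it read 102 and 113 with vehicle, 105 and 92.1 with cabazitaxel, and 103 and 109 with docetaxel. All 6 full-serum arrays were therefore above all 6 charcoal arrays, and no treatment stood apart within a serum. The log2 difference over the mean of the 3 treatments was 0.57 (SE 0.0627, 95% confidence interval 0.43 to 0.70, limma adjusted p = 0.000554). By treatment it was 0.59 with vehicle (limma adjusted p = 0.0519), 0.53 with cabazitaxel (0.0926) and 0.58 with docetaxel (0.0586), none of which passed alone in this fit. The vehicle value passed under 3 of 13 alternatives (RAD54B limma adjusted p from 0.033 to 0.0382). The docetaxel value also passed under 3 of 13 (from 0.0335 to 0.0453). In each case the other 10 left it short of the threshold. The difference was of like size in each treatment, and the comparison that passed pools 6 arrays a side. The gene model of RAD54B overlaps that of FSBP in RefSeq, so probes there could read either transcript.

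BARD1 (16907960) went the other way. It read 254 and 297 with vehicle, 248 and 304 with cabazitaxel, and 279 and 309 with docetaxel in charcoal serum. In full serum it read 196 and 218, 229 and 202, and 220 and 204 for the same treatments. The lowest charcoal array (248) was above the highest full-serum array (229). The log2 difference, full minus charcoal, was -0.41 over the 3 treatments (SE 0.0689, 95% confidence interval -0.56 to -0.26, limma adjusted p = 0.00881). It was -0.41 with vehicle, -0.35 with cabazitaxel and -0.47 with docetaxel, with limma adjusted p of 0.276, 0.504 and 0.197, the cabazitaxel value ranging from -0.50 to -0.20 with 1 array left out. With an assumed offset of 16 subtracted from the intensities, the difference over the 3 treatments was -0.44 and no longer passed (adjusted p = 0.0532). BARD1 had the widest spread between arrays of a group among the 5 genes, with a pooled SD of 0.138 on the log2 scale.

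Of the 5 genes, 2 passed in the comparison of sera over all treatments, against 256 of all genes, or 2.31%. By direction, 1 rose and 1 fell, against 1.1% and 1.21% of all genes. The arrays of 1 member lay wholly higher in full serum and of 1 wholly lower, against 1.23% and 1.43% of all genes. With the sera compared within vehicle, cabazitaxel or docetaxel alone, 0 of the 5 passed by limma, with 0.396%, 0.396% and 0.315% of all genes called. At an unadjusted p under 0.05, limma gave 952, 785 and 903 of all genes in these 3 comparisons. RAD54B stood at the 99.8th percentile of all log2 differences over the 3 treatments and BARD1 at the 0.315th. The 5 genes were not chosen by a stated serum rule. Earlier results of these data were known, however, which may have favoured such counts and ranks.

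EXO1 (16679411), the resection nuclease, had its highest level in full serum with vehicle. The intensities in charcoal serum were 72.9 and 72.5 with vehicle, 58.9 and 58.0 with cabazitaxel, and 60.6 and 68.0 with docetaxel. In full serum they were 78.3 and 87.5, 70.4 and 65.8, and 75.8 and 69.6. The mean was higher in full serum in each treatment, by 0.19, 0.22 and 0.18 on the log2 scale for vehicle, cabazitaxel and docetaxel. Over all treatments the full-serum arrays (65.8 to 87.5) overlapped the charcoal arrays (58.0 to 72.9). Over the 3 treatments EXO1 was 0.19 higher (SE 0.0498, 95% confidence interval 0.09 to 0.30) and did not pass (limma adjusted p = 0.0769).

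XRCC2 (17064679), which acts before strand invasion, followed the same order of groups. In charcoal serum it read 98.5 and 89.5 with vehicle, 76.0 and 83.0 with cabazitaxel, and 83.4 and 84.6 with docetaxel. In full serum the intensities were 101 and 106, 90.2 and 84.1, and 90.5 and 93.5. The serum difference over the 3 treatments was 0.14 (95% confidence interval 0.04 to 0.24, limma adjusted p = 0.187), with 0.15, 0.13 and 0.13 by treatment. It did not pass.

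RAD51AP1 (16747014), a cofactor of strand invasion, showed the smallest log2 range of the 5 genes over the arrays, with intensities from 64.3 to 85.4. In charcoal serum it read 75.3 and 79.9 with vehicle, 69.1 and 64.3 with cabazitaxel, and 78.3 and 74.4 with docetaxel. In full serum it read 72.3 and 73.6, 75.3 and 74.1, and 85.4 and 78.0. The low pair was cabazitaxel in charcoal serum. The serum difference was 0.06 over the 3 treatments (95% confidence interval -0.04 to 0.15, limma adjusted p = 0.686), with -0.09 for vehicle, 0.16 for cabazitaxel and 0.10 for docetaxel.

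**Figure D2:**
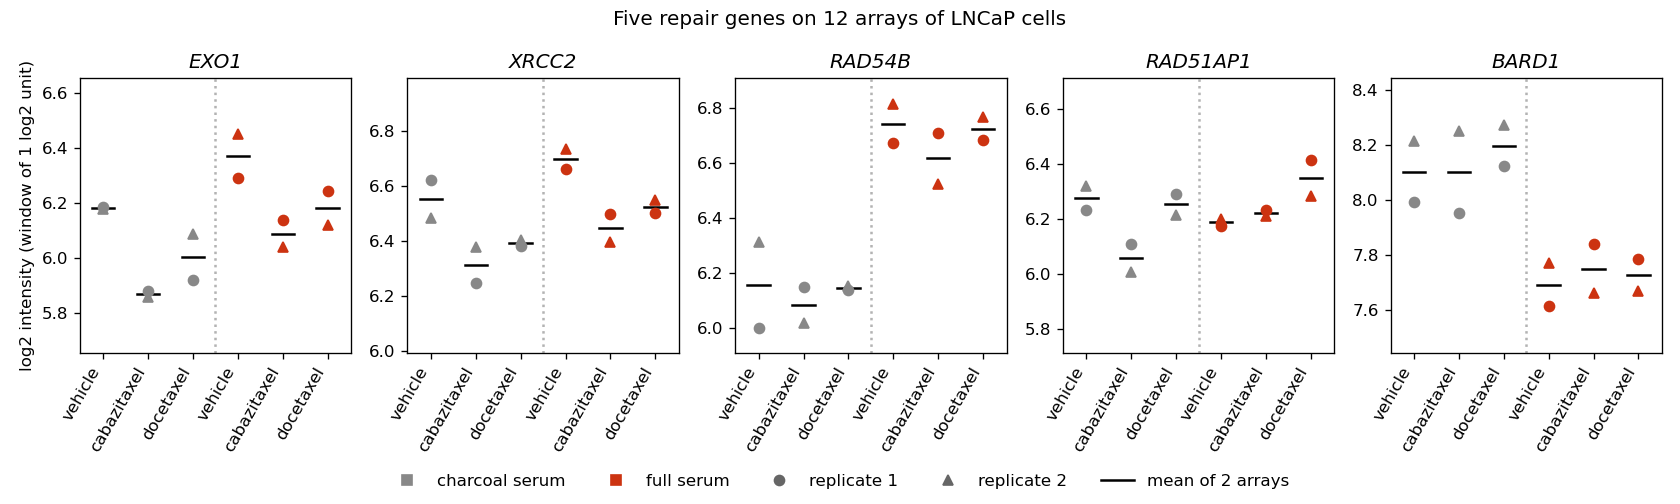
log2 intensity of each repair gene on the 12 arrays, by serum and treatment; each point is an array and each bar the mean of 2, and each panel spans 1 log2 unit. RAD54B is higher and BARD1 lower on all 6 full-serum arrays. EXO1 and XRCC2, chosen for lower taxane values, peak with vehicle in each serum.

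Some of the markers differed with serum too. The summed intensity of the 7 luminal markers was 2291 to 2626 in charcoal and 2952 to 3601 in full serum. The kallikreins KLK2, KLK3 and KLK4 rose, by log2 differences of 1.47, 0.97 and 0.39 over the 3 treatments (limma adjusted p = 8.18e-06, 0.000368 and 0.00281). FOLH1, HOXB13 and KRT8 had differences of -0.20, -0.10 and -0.03 and did not pass, and the median over the 7 was 0.0503. The summed intensity of the 5 named fibroblast genes of 10 listed was 488.5 to 628.7 in charcoal and 597.4 to 783.7 in full serum. FN1 made up most of it, and DCN and LUM were near the floor. These ranges overlap, and none of the 3 tested fibroblast markers passed. The part of the marker differences in the serum differences of RAD54B and BARD1 was not tested. In bulk RNA, fewer cells of a type or cycle stage and less RNA per cell cannot be told apart.

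The order of the 6 groups was not the same for all genes. RAD54B and BARD1 both split by serum, in opposite directions. EXO1 and XRCC2 shared an order, from full vehicle (mean log2 intensity 6.37 for EXO1 and 6.70 for XRCC2) through charcoal vehicle, full docetaxel, full cabazitaxel and charcoal docetaxel to charcoal cabazitaxel (5.87 and 6.31). For EXO1, the arrays of full vehicle lay apart from those of charcoal vehicle, and those of charcoal docetaxel from charcoal cabazitaxel, and the neighbours between them overlapped. For XRCC2, the neighbours charcoal vehicle and full docetaxel overlapped, as did full cabazitaxel and charcoal docetaxel, and the other neighbours did not. The choice of EXO1 and XRCC2 by lower taxane values favoured their shared order. For RAD54B the only gap between neighbouring groups was from full cabazitaxel (6.62) to charcoal vehicle (6.16). For BARD1 it was from charcoal cabazitaxel (8.10) to full cabazitaxel (7.75). For RAD51AP1, charcoal cabazitaxel (6.06) lay apart below full vehicle (6.19), which in turn lay apart below full cabazitaxel (6.22), and the other neighbours overlapped.

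EXO1 and XRCC2 were lower than vehicle with both taxanes in both sera, the values that chose them. EXO1 with cabazitaxel differed from vehicle by -0.31 on the log2 scale in charcoal and -0.28 in full serum, and with docetaxel by -0.18 and -0.19. With the assumed offset of 16 subtracted, EXO1 with cabazitaxel gave -0.42 in charcoal serum and, over both sera, -0.39 in place of -0.30. With 1 array left out, its docetaxel difference ranged from -0.26 to -0.10 in charcoal and from -0.27 to -0.11 in full serum. XRCC2 differed by -0.24 and -0.25 with cabazitaxel, and by -0.16 and -0.17 with docetaxel. With 1 array left out, its charcoal values ranged from -0.31 to -0.17 with cabazitaxel and from -0.23 to -0.09 with docetaxel. In each serum all 4 taxane arrays of both genes were below both vehicle arrays, as in 0.459% of all genes. These values fixed the choice and are no support for it. The cabazitaxel and docetaxel differences also share their vehicle arrays.

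The other 3 genes were not lower with both taxanes in both sera beyond their array spread. RAD51AP1 came nearest with cabazitaxel in charcoal serum, where both its arrays were below both vehicle arrays. RAD54B differed by -0.07 in charcoal and -0.13 in full serum with cabazitaxel, and by -0.01 and -0.02 with docetaxel. BARD1 differed by 0.00 and 0.06 with cabazitaxel, and by 0.09 and 0.03 with docetaxel. RAD51AP1 differed by -0.22 in charcoal and 0.03 in full serum with cabazitaxel, and by -0.02 and 0.16 with docetaxel, the last ranging from 0.10 to 0.23 with 1 array left out. Its 4 taxane arrays in full serum were all above its vehicle arrays, as in 9.45% of all genes. Limma called 0 of all genes (0%) for either taxane against vehicle in either serum or over both, and so did the submitters' kind of test, a Student's test per gene with Benjamini-Hochberg adjustment. At an unadjusted p under 0.05, limma gave 520 genes for cabazitaxel and 672 for docetaxel over both sera.

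**Figure D3:**
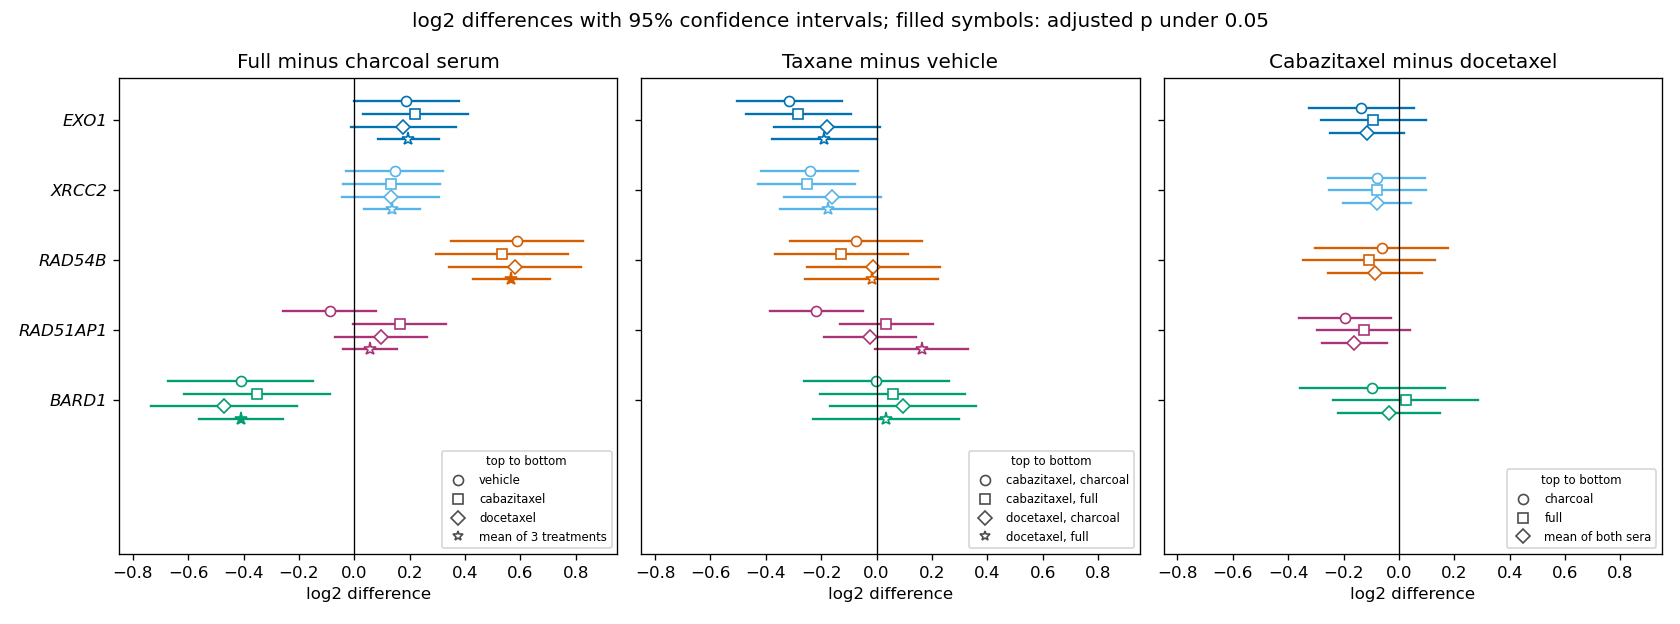
log2 differences of the 5 repair genes with limma's 95% confidence intervals, for full minus charcoal serum, taxane minus vehicle and cabazitaxel minus docetaxel. Filled symbols passed over all genes and are those of RAD54B (0.57) and BARD1 (-0.41) over the 3 treatments; the taxane intervals of EXO1 and XRCC2 describe the values that chose them.

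Cabazitaxel and docetaxel were given at the same dose and time, and the former carries methoxy groups at positions where docetaxel has hydroxyl groups. For the 5 genes, 15 differences between the taxanes were computed, in each serum and over both, and none passed over all genes. EXO1 and XRCC2 were chosen on these taxane arrays, so their values here are a description. RAD51AP1 showed the largest. Its cabazitaxel arrays were below its docetaxel arrays in each serum, and the difference over both sera was -0.16 (SE 0.0539, 95% confidence interval -0.28 to -0.04, limma adjusted p = 0.958). The cabazitaxel arrays of XRCC2 were also below its docetaxel arrays in each serum, as were those of 3.7% of all genes. Over both sera the difference was -0.08 for XRCC2 (95% confidence interval -0.20 to 0.04) and -0.11 for EXO1 (-0.25 to 0.02). It was -0.09 for RAD54B (-0.25 to 0.08) and -0.04 for BARD1 (-0.22 to 0.15). These intervals bound the differences and do not show that the taxanes act alike. Limma called 0 of all genes (0%) between the taxanes over both sera, with 506 at an unadjusted p under 0.05, and the Student's test also called 0.

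Whether a taxane difference changed with serum was tested as an interaction, full minus charcoal. RAD51AP1 gave 0.25 for cabazitaxel (95% confidence interval 0.02 to 0.49, limma adjusted p = 0.999) and 0.19 for docetaxel (-0.05 to 0.42, adjusted p = 0.999). For the other 4 genes the interactions lay between -0.06 and 0.06, and the widest intervals were those of BARD1, -0.31 to 0.43 for cabazitaxel and -0.43 to 0.31 for docetaxel. The vehicle and taxane arrays that chose EXO1 and XRCC2 enter these interactions, so for them the values are a description. Limma called 0 of all genes (0%) in each interaction, with 380 for cabazitaxel and 401 for docetaxel at an unadjusted p under 0.05.

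Other recombination genes were taken from a list of 45, of which 29 were named and tested, the 5 genes above among them. In full against charcoal serum, over the 3 treatments, 19 of the 29 were higher, 2 rose (RAD54B and EME1, a subunit of a junction-cutting nuclease, at 0.27 with limma adjusted p = 0.029) and 1 fell (BARD1). The median log2 difference was 0.0332, beside -0.00142 over all genes, of which 2.31% were called. RAD54B and BARD1 were the highest and the lowest of the list, and both genes and list were chosen with earlier results known. With cabazitaxel 20 of the 29 were lower than vehicle with a median of -0.0725, and with docetaxel 14 were, with a median of 0.0152 that turned to -0.0206 under quantile normalization. EXO1 and XRCC2 are among the lower genes in both counts and were chosen for that, so the counts are a description. None of the 29 passed. DNA2, a nuclease that resects ends alongside EXO1, had the lowest value with cabazitaxel at -0.41 and was singled out after its value was seen.

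Mismatch repair was covered by 7 of 20 listed genes, EXO1 among them. In full serum 4 of the 7 were higher and 1 rose, PCNA, the sliding clamp of replication that also serves mismatch repair (0.22, limma adjusted p = 0.0206). Of all genes, 2.31% were called in the same comparison. PCNA differed by 0.04 with vehicle, 0.24 with cabazitaxel and 0.36 with docetaxel, none of which passed alone. With cabazitaxel 6 of the 7 were lower, with a median of -0.127 and PCNA at -0.21, and none passed. EXO1, chosen for its lower taxane values, is among the 6.

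Few genes of the neighbouring repair lists passed, beside 2.31% of all genes by serum over the 3 treatments. Of 6 Fanconi pathway genes, which handle crosslinks, 1 rose in full serum, UBE2T, its ubiquitin-conjugating enzyme (0.27, limma adjusted p = 0.0284). Of 15 damage checkpoint genes 1 rose, CLSPN, the adaptor for the kinase CHK1 (0.33, adjusted p = 0.00469), which also passed with vehicle alone (0.53, adjusted p = 0.0271) and differed by 0.30 with cabazitaxel and 0.17 with docetaxel. None of 6 end joining, 16 base excision repair and 2 nucleotide excision repair genes passed in any comparison. Those with the smallest p in the serum comparison were RIF1 (0.14) and XRCC6 (0.11) for end joining, PARP1 (0.19) and FEN1 (0.16) for base excision, and RAD23B (-0.13) and UVSSA (0.00) for nucleotide excision. With cabazitaxel the lowest p of those lists were at XRCC5 (-0.05) and RIF1 (-0.10), and at FEN1 (-0.20) and PARP2 (-0.11).

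Most DNA replication genes were higher in full serum. Of 26 tested, 25 were higher in full serum and 7 rose, with a median of 0.176. They included CDC6, which loads the replicative helicase (0.52, limma adjusted p = 0.00308), CDC45, part of that helicase (0.30, 0.00952), and DTL, which directs replication-coupled protein degradation (0.34, 0.0222). Of all genes, 2.31% were called by serum over the 3 treatments. By treatment, the median serum difference of the list was 0.0966 with vehicle, 0.241 with cabazitaxel and 0.203 with docetaxel. CDC6 also passed with docetaxel alone (0.72, adjusted p = 0.0477) and differed by 0.28 with vehicle and 0.55 with cabazitaxel. With cabazitaxel 26 of 26 were lower than vehicle, with a median of -0.196, and with docetaxel 25 of 26, with a median of -0.176, none of which passed. The medians of all genes were 0.00208 and 0.00913. Mitosis genes were higher in full serum in 16 of 16 with a median of 0.0821 and none passed, AURKB (0.23) and KIF11 (0.15), which act in chromosome segregation, having the smallest p. Their medians with cabazitaxel and docetaxel were -0.0694 and 0.0387. The serum differences of EXO1 and XRCC2 had the sign of the replication list's median. Their taxane differences had the sign of its taxane medians, but the choice of both genes by lower taxane values fixed that in advance. RAD54B had the sign of the list's serum median, with a difference over the 3 treatments of 0.57, beside 0.52 for CDC6, the largest of that list. By treatment, CDC6 differed more than RAD54B with docetaxel (0.72 beside 0.58) and slightly more with cabazitaxel (0.55 beside 0.53). With vehicle it differed less (0.28 beside 0.59). BARD1 had the sign opposite to the list's serum median. Whether the EXO1 and XRCC2 differences are part of those of the replication genes was not tested. Under the offset of 16, 1 of the 26 replication genes passed in the serum comparison, 1 of the 29 recombination genes (RAD54B), and neither PCNA nor UBE2T did.

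**Figure D4:**
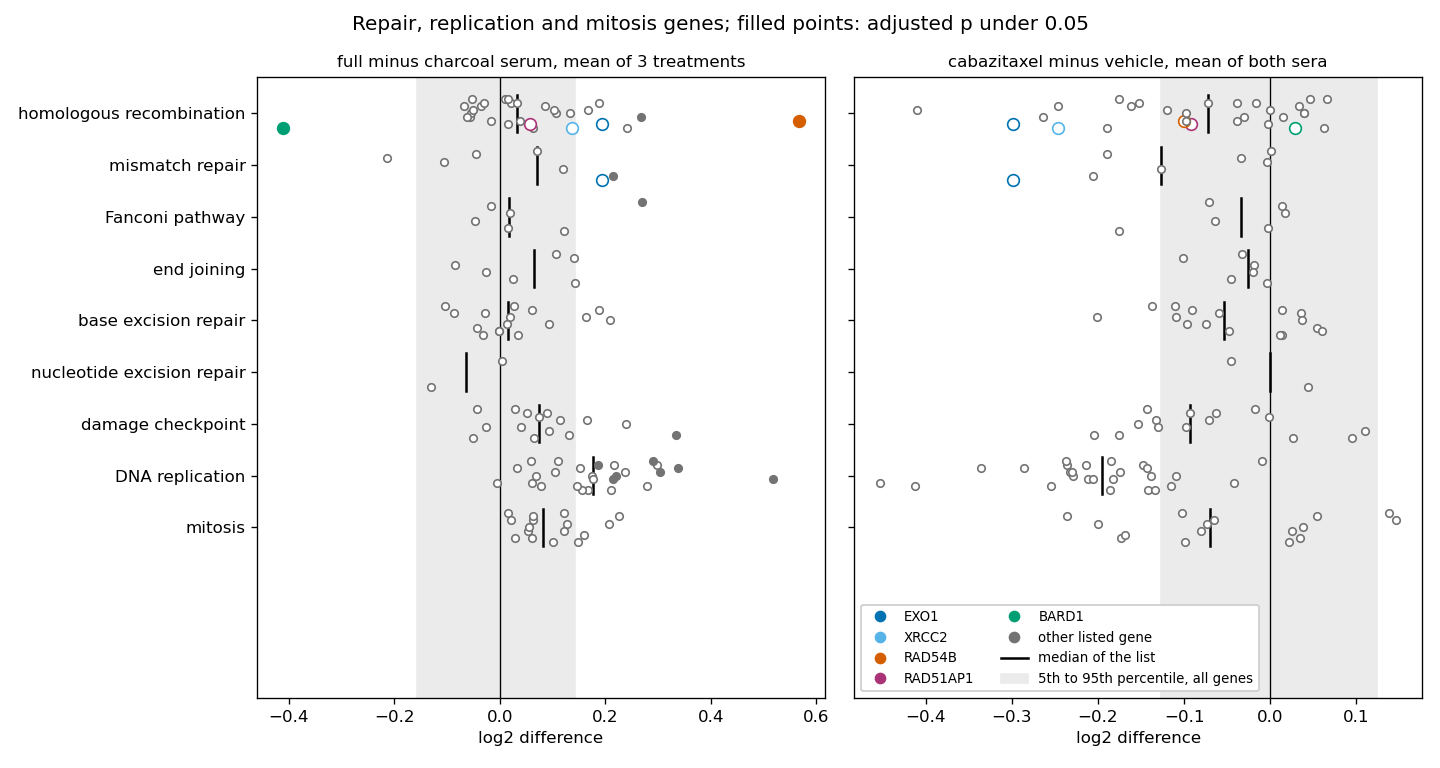
log2 differences of genes in 9 lists of repair, replication and mitosis, for full minus charcoal serum (left) and cabazitaxel minus vehicle (right); black bars are list medians and the grey band spans the 5th to 95th percentile of all genes. RAD54B and BARD1 are the highest and lowest recombination genes by serum, and the replication median is 0.176 on the left and -0.196 on the right.

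Across the 12 arrays, EXO1 and XRCC2 ran together with a Pearson r of 0.904, and RAD54B and BARD1 opposed each other with r = -0.801. EXO1 with RAD54B gave 0.671, XRCC2 with RAD54B 0.556, and RAD51AP1 with BARD1 -0.205. These are descriptions over 12 arrays that share the design's 6 groups, so a common difference between groups raises them. EXO1 and XRCC2 were both chosen for lower values on the taxane arrays, so a high r between them was favoured by the choice. The genes most like each member by r over these arrays were FBXO5 (0.948), an inhibitor of the anaphase-promoting complex, and XRCC2 for EXO1. For XRCC2 they were MRS2 (0.952), a mitochondrial magnesium channel, and TGOLN2 (0.908), a trans-Golgi protein.

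For RAD54B the most alike were ANKRD27 (0.953) and HERC3 (0.946). HERC3 differed by 0.97 between sera and ANKRD27 by 0.33, on either side of RAD54B's 0.57. For BARD1 they were GRB10 (0.979), an adaptor of insulin receptor signalling, and ADGRG6 (0.967), an adhesion G protein-coupled receptor, at -0.36 and -0.50. For RAD51AP1 they were IPO7 (0.842), a nuclear import receptor, and KIF1C (0.839), a kinesin, the lowest of the 5 pairs. Most like the mean of the 5 genes were MCM8 (0.929), SHMT1 (0.918), FBXO5 (0.896), STIL (0.892) and TTC13 (0.883). These genes were picked for likeness, so their differences are given without a test. The mean of the 5 genes joins opposed profiles, such as those of RAD54B and BARD1 (r = -0.801). It also includes EXO1 and XRCC2, which were chosen for lower taxane values.

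**Figure D5:**
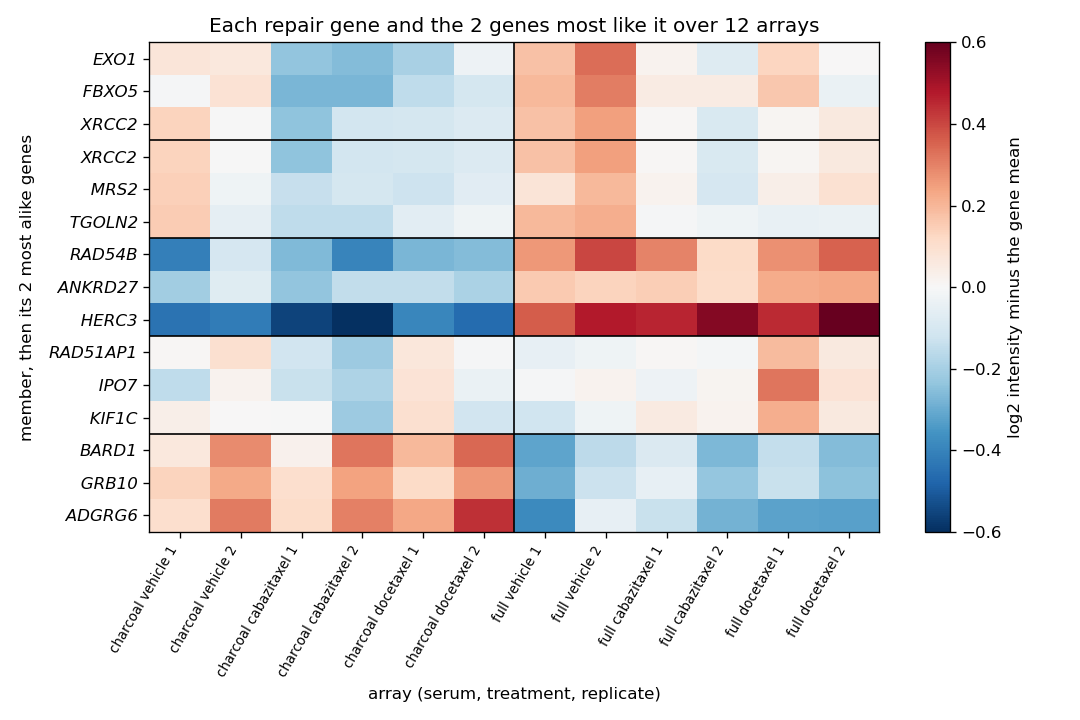
log2 intensity minus the gene's mean on the 12 arrays for each repair gene and the 2 tested genes with the highest Pearson r to it (red higher, blue lower). The RAD54B and BARD1 blocks change colour at the line between the sera, while in the rows of EXO1 and XRCC2 themselves the vehicle arrays of full serum are highest.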

How the data were processed

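The authors' deposited table holds array intensities. RMA is named in the submitters' processing notes, with no version given. The values are on a linear scale from 17.32 to 6307.3, and 57.5% lie below 24, so the log2 was taken. Of 44629 transcript clusters, 15835 had 1 gene symbol in the platform annotation and 28794 had none and were left out; where a gene had several, the cluster with the highest mean was kept. A gene entered the test, limma 3.58.1 under R 4.3.3, if 2 or more of its 12 values exceeded the overall median. All 12 arrays and 6 group means entered 1 fit (6 residual and 5.08 prior degrees of freedom), and two-sided p-values were adjusted by the Benjamini-Hochberg method over all 11105 genes within each comparison, with a call at 0.05. The fit was tried on simulated data with independent normal noise. Those data had no floor and no deviations shared by same-numbered arrays, so they differ from these arrays. Precision is limited by the number of arrays, which carry no read depth.

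The members and lists were chosen with earlier results of these data known. Named were the 5 genes, up to 4 called members of each list by smallest p in a comparison, otherwise up to 2 with the smallest p for serum and for cabazitaxel, the genes most alike over 12 arrays, and the markers. Promoters were taken from RefSeq (GRCh38.p14) by symbol. Alternatives covered the filter, an offset, quantile normalization, array weights, the replicate number as a block, the mean of transcript clusters, fits on the compared groups only, the Student's test and each array left out.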

Additional observations from a re-analysis of the deposited data

Results flagged for a closer look

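The arrays of RAD51AP1 lay apart in opposite directions in different groups, with 2 arrays in each. The share of all genes with such a pattern was not computed. Both cabazitaxel arrays were below both vehicle arrays in charcoal serum (log2 difference -0.22) and above both in full serum (0.035). Seen the other way, both full-serum arrays were below both charcoal arrays with vehicle (-0.089) and above both with cabazitaxel (0.16). Of these differences only that of -0.22 had a limma 95% confidence interval without 0 (-0.39 to -0.05). The intervals were -0.13 to 0.20 for 0.035, -0.26 to 0.078 for -0.089 and -0.0037 to 0.33 for 0.16. The interaction itself was 0.25 with a limma adjusted p = 0.999, so the difference between the sera did not pass.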

How the results depend on the processing

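The differences of RAD54B and BARD1 between the sera over the 3 treatments were recomputed under 21 alternatives. RAD54B kept its direction and its call in all 21, with log2 differences of 0.52 to 0.70. BARD1 kept its direction in 21 and its call in 20, at -0.46 to -0.36, and lost it only with an offset of 16 subtracted (-0.44, adjusted p = 0.0532), where 1 of the 5 genes passed instead of 2. The cause was not tested. Leaving out each array in turn, both passed each time, with 0.52 to 0.62 for RAD54B and -0.46 to -0.36 for BARD1.

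Within vehicle alone, 1 of the 5 genes passed in place of 0 under the stricter filter (RAD54B 0.59, adjusted p = 0.033), quantile normalization (0.61, 0.0361) and the replicate block (0.59, 0.0382). Within docetaxel alone, 1 passed in place of 0 under the stricter filter (RAD54B 0.58, adjusted p = 0.0364), array weights (0.58, 0.0335) and the replicate block (0.58, 0.0453). In both comparisons the other 10 of 13 alternatives left the count unchanged. The stricter filter tests fewer genes. The replicate numbers were not taken to pair the arrays, since not every pair of groups correlated over 0.1: same-numbered arrays deviated together with correlations of -0.0486 to 0.326, median 0.151, and 10 of 15 pairs over 0.1. The replicate block also moved the genes called by serum from 44 to 70 with vehicle and from 35 to 62 with docetaxel.

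Other counts of all genes called by serum moved too. Over the 3 treatments 256 became 132 with the offset, and 149 to 248 with an array left out, falling by over 1.5 times without charcoal docetaxel replicate 2 (167), full cabazitaxel replicate 2 (151), full docetaxel replicate 1 (169) or full docetaxel replicate 2 (149). The count over the 3 treatments was 359 with the replicate block and 185 with the Student's test. With the offset, 44 became 16 for vehicle, 44 became 10 for cabazitaxel and 35 became 9 for docetaxel. Without the filter, cabazitaxel gave 25 and docetaxel 22. With only the groups compared in the fit the counts were 1, 7 and 12, with the Student's test 0, 2 and 0, and with an array left out 7 to 43, 9 to 19 and 7 to 21. Taxane and interaction comparisons gave 0 calls under all alternatives run. The Student's test was not run for interactions.

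Differences that changed sign had not passed. Taxane minus vehicle crossed 0 with an array left out for BARD1 (cabazitaxel -0.15 to 0.15 in charcoal, -0.033 to 0.15 in full and -0.045 to 0.10 over both sera, docetaxel -0.016 to 0.21 in charcoal and -0.045 to 0.11 in full), RAD54B (cabazitaxel -0.23 to 0.082 in charcoal, docetaxel -0.17 to 0.14 in charcoal, -0.089 to 0.053 in full and -0.093 to 0.063 over both) and RAD51AP1 (docetaxel -0.067 to 0.019 in charcoal). Between the taxanes, with an array left out, BARD1 ranged from -0.24 to 0.052 in charcoal serum, -0.067 to 0.11 in full serum and -0.11 to 0.04 over both, and RAD54B from -0.13 to 0.0036 in charcoal serum. The interactions with cabazitaxel and docetaxel ranged from -0.089 to 0.21 and -0.17 to 0.050 for BARD1, -0.047 to 0.11 and -0.094 to 0.074 for EXO1, -0.21 to 0.10 and -0.16 to 0.15 for RAD54B, and -0.081 to 0.057 and -0.083 to 0.055 for XRCC2. For EXO1 the interaction with cabazitaxel was also -0.0054 under quantile normalization.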
